A study of Mus musculus with 6 samples.

Results

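The genes examined here encode the nuclear part of mitochondrial oxidative phosphorylation: subunits of NADH dehydrogenase (complex I), succinate dehydrogenase (complex II), the cytochrome bc1 complex (complex III) with cytochrome c, cytochrome c oxidase (complex IV) and ATP synthase (complex V). They were taken by symbol: protein-coding genes beginning with Nduf, Uqcr or Atp5, those named Cox4 to Cox8 with any suffix, and Sdha, Sdhb, Sdhc, Sdhd, Cycs and Cyc1. The rule gave 98 of 21887 protein-coding genes, namely 39 complex I subunits, 8 complex I assembly factors (symbols beginning with Ndufaf), 4 genes of complex II, 10 of complex III and cytochrome c, 20 of complex IV and 17 of ATP synthase. Ndufa4 and Ndufa4l2 were counted with complex IV, since the Ndufa4 protein is a cytochrome c oxidase subunit in spite of its symbol.

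Chromatin immunoprecipitation sequencing was done on gastric corpus epithelial cells of mice, released with EDTA and frozen without culture, in 6 libraries. H3K27ac was read in 1 normal and 1 tumor library, and YAP in 4 libraries, labelled normal 1, normal 2, tumor 1 and tumor 2. Mice of the normal group were WT, and those of the tumor group had the genotype CluCreERT2;R26rtTA;HA-Yap+, which names a tamoxifen-activated Cre at Clu, a tetracycline transactivator at R26 and an HA-tagged Yap. The Cre driver limits recombination to Clu-expressing cells and their descendants. The protocol text, written in the same words for all samples, gives daily tamoxifen (2 mg, 5 days) followed by 14 days of doxycycline food. The labels give no ages, and leave unsaid whether animals were pooled or whether replicate libraries are separate animals. A p-value between libraries therefore covers only their own spread, which could be technical. In bulk epithelium, a different mixture of cells and a different chromatin state within a cell cannot be told apart.

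Oxidative phosphorylation uses the electrons of NADH and succinate to pump protons across the inner mitochondrial membrane, and ATP synthase is driven by their return. Most of the subunits are encoded in the nucleus and are made in nearly every cell, from promoters known for NRF1, ETS-family and YY1 sites, while estrogen-related receptors (ERR) raise their transcription in cells with high energy use, such as the acid-secreting parietal cells of the gastric corpus. H3K27ac is an acetyl mark of active promoters and enhancers. YAP is a coactivator restrained by the Hippo kinases that reaches DNA through TEAD factors, often beside AP-1.

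Each library was available as a list of peak summits, each 1 bp wide, with a caller score and no read counts, so depth is unknown. The lists held 22574 (normal) and 66896 (tumor) H3K27ac summits, a ratio of 2.96, and 1654, 2141, 38268 and 53904 YAP summits in normal 1, normal 2, tumor 1 and tumor 2. The words inside the peak names contradict the labels of 2 YAP libraries: normal 2 is named like the tumor H3K27ac library, and tumor 1 like normal 1 and the normal H3K27ac library. Every YAP direction below therefore rests on labels that the files contradict for the libraries labelled normal 2 and tumor 1. All 5 epithelial marker genes checked (Epcam, Cdh1, Krt8, Krt18 and Cldn18) had H3K27ac summits in both libraries less than 1 kb from an end or start. Markers of gastric lineages had one at 8 of 11 genes in the normal and 7 of 11 in the full tumor list, markers of immune cells at 1 of 5 in each, and markers of stroma and muscle at 3 of 8 and 5 of 8. With the tumor list shortened by score to the normal length, gastric lineages had 5 of 11, immune cells 0 of 5, and stroma and muscle 1 of 8, so that the direction for stroma and muscle turned with list length. Their part in the results below was not tested.

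Promoter sequences are shown for 8 genes, chosen for a well-ranked YAP site, for a motif match described below, or for contrast. Starts and sequences are those of RefSeq on GRCm38.p6 and were available for 79 of the 98 genes. Each sequence runs 5′ to 3′ on the strand of the gene. Capitals mark matches to 6 motifs on either strand: GGAATG (TEAD), TGANTCA (AP-1), GCGC followed by any base and TGCGC (NRF1), TCAAGGTCA (ERR), AAGATGGC (YY1) and CCGGAAG (ETS). GGAATG and CCGGAAG share the letters GGAA. Positions are counted from the start base as 0, with negative values upstream. The 250 bases before the start of Ndufa4 (chr6:11907451-11907700, minus strand) and of Cox7a2l (chr17:83514334-83514583, minus strand) contain the 2 YAP sites with the best combined rank over both tumor libraries among the genes examined, and hold no match. The same stretch of Atp5l (chr9:44920743-44920992, minus strand) holds an ETS match, and that of Atp5g2 (chr15:102671048-102671297, minus strand) an NRF1 match. Cox8b (chr7:140900447-140900696, minus strand), a muscle isoform with no summit at its start in any library, is shown for contrast. The 30-base stretches are the TEAD matches of Ndufs7 (chr10:80249239-80249268, plus strand) and Cox5a (chr9:57521055-57521084, plus strand), and the ERR match of Atp5g3 (chr2:73911360-73911389, minus strand). Ndufs7 and Cox5a had well-ranked YAP sites, but these lay outside the printed stretches, 288 and 58 bp upstream of the start.
Ndufa4: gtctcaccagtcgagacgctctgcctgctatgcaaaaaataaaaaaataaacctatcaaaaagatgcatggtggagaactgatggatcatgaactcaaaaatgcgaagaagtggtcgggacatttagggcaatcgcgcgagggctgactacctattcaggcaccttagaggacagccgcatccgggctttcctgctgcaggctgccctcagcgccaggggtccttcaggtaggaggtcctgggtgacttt
Cox7a2l: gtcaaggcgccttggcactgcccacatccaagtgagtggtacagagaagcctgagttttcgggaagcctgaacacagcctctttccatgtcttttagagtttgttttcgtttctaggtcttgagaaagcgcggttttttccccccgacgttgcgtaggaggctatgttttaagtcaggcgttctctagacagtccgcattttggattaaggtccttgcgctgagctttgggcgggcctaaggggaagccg
Atp5l: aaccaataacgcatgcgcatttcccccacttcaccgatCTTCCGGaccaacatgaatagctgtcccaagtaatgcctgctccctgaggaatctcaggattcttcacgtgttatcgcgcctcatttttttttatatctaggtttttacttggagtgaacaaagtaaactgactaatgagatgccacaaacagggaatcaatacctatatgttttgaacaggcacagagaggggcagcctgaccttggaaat
Atp5g2: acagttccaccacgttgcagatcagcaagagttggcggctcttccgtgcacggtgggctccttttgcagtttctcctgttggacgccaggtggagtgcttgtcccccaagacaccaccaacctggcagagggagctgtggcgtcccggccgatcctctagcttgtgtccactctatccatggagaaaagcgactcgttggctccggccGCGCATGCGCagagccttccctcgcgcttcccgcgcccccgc
Cox8b: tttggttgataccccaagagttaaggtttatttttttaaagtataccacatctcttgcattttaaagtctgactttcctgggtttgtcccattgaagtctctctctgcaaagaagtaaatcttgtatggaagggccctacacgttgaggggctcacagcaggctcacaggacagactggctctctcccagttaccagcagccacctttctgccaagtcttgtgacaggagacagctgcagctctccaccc
Ndufs7: gcgactttttCATTCCctaatactgaataa
Cox5a: tcctcccacgcaGGAATGttcactacggtc
Atp5g3: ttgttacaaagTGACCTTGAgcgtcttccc

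The first question was whether YAP was found at these genes in tumor epithelium. Each summit was assigned to the protein-coding gene with the nearest start or end coordinate within 50 kb. A YAP site of both tumor libraries is a summit of tumor 1 and a summit of tumor 2 within 200 bp, placed at their midpoint. Such a site was assigned to 73 of the 98 genes (74.5%, 95% Wilson interval 65.0 to 82.1), against 60.0% of all protein-coding genes. These intervals cover counting error only. Alone, tumor 1 and tumor 2 each had summits assigned to 85 genes, against 66.3% and 70.8% of all genes. The normal libraries had summits at 1 gene (normal 1, against 2.79% of all genes) and 7 genes (normal 2, against 5.98%), and a site of both normal libraries was assigned to 0 of 98 genes, which allows up to 3.77% by the Wilson interval, against 0.950% of all genes.

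Most of these sites lay at gene starts. Within 1 kb of a gene end and nearest to that gene, 61 genes (62.2%, 52.4 to 71.2) had a YAP site of both tumor libraries, against 41.4% of all genes. That count leaves out genes whose promoter lies nearer to a neighbour, such as Ndufa4 and Phf14, whose ends are 275 bp apart, and genes whose RefSeq record reaches beyond the listed start, such as Cox5a. When a site within 1 kb of an end or of a listed start was counted for the gene whichever gene was nearest, a definition chosen after seeing the data and used below for ranks and positions, 77 genes (78.6%, 69.5 to 85.5) had one, against 50.2% of all genes. All 77 were among the 93 genes with an H3K27ac summit placed in that way in either library, so that 82.8% of these (73.9 to 89.1) had the YAP site, against 69.8% of the 15406 such protein-coding genes.

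Whichever gene was nearest, the best YAP ranks lay at complex IV genes in tumor 1 and at Ndufs7 of complex I in tumor 2. Ndufa4 had a site 189 bp upstream of its start, with rank 59 of 38268 in tumor 1 and 134 of 53904 in tumor 2. Ranks run from the highest score. The Ndufa4 site lay nearer to Phf14 and was not assigned to Ndufa4 by the nearest-gene rule. Cox7a2l, whose product joins complexes III and IV into supercomplexes, had a site 165 bp upstream (chr17:83514498-83514498) with ranks 72 and 123. Both sites fall in the promoter stretches printed above, which hold none of the 6 motifs. Cox5a, a nuclear-encoded subunit, had ranks 1097 and 722 at 58 bp upstream, and its GGAATG match spans -165 to -160. Cox4i1, the widely expressed form of subunit 4, had ranks 1583 and 4272.

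In complex I, the site with the best combined rank was at Ndufs7, which encodes an iron-sulfur subunit, with ranks 235 in tumor 1 and 106 in tumor 2 at 288 bp upstream of the start. Its printed CATTCC, the reverse strand of GGAATG, spans -200 to -195. The accessory subunits Ndufb3 (ranks 624 and 1172), Ndufb5 (495 and 1590) and Ndufb2 (672 and 1482) followed, with sites at 54 bp downstream, 97 bp upstream and 63 bp downstream of the start. A site with ranks 796 and 582 lay within 1 kb of the far end of Ndufb6, not at its start. In ATP synthase, Atp5l, which encodes membrane subunit g, had ranks 228 and 886 at 95 bp upstream. Atp5pb, the peripheral stalk subunit b, had ranks 653 and 1618, and Atp5g2, 1 of the genes for the c-ring subunit, had ranks 2260 and 893 at 74 bp upstream of its start, upstream of the printed NRF1 match at -42 to -33. Atp5mpl had ranks 942 and 2534.

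The best sites of the remaining groups ranked lower in both libraries than those of Ndufa4, Ndufs7 and Atp5l. Cycs, the cytochrome c of somatic cells, had ranks 3069 and 1192. In complex III, Uqcrq had ranks 2510 and 2294 and the Rieske iron-sulfur gene Uqcrfs1 6665 and 1106. In complex II, the catalytic flavoprotein gene Sdha had ranks 6125 and 4384 and the iron-sulfur subunit gene Sdhb 6682 and 6052. Of the assembly factors, Ndufaf4 ranked best, at 3440 and 2863.

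As a group the genes had YAP ranks close to those of all genes. Of the genes with a YAP summit within 1 kb of an end or start, 26 of 87 had their best one in the best 10% of the tumor 1 list (29.9%), against 28.0% of all such genes, and 39 of 90 in tumor 2 (43.3%), against 35.6%. The median rank, as a percentage of the list, was 17.5% in tumor 1 and 11.4% in tumor 2, against 19.2% and 15.2% for all genes with such a summit. Between complexes the medians ran from 13.4% (complex IV) to 22.3% (complex II) in tumor 1 and from 9.32% (complex I subunits) to 17.2% (complex IV) in tumor 2, so the order of the complexes differed between the libraries.

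**Figure D1:**
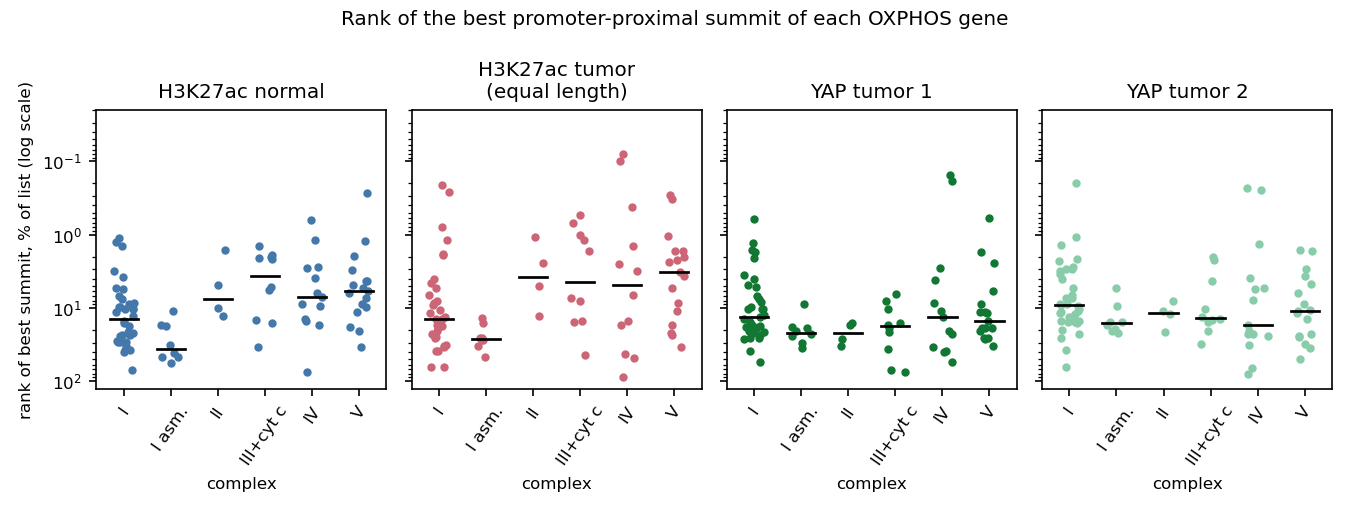
Rank of the best summit within 1 kb of an end or annotated start of each gene, as a percentage of the list (log scale, best at the top), by complex, in the normal and tumor H3K27ac lists at equal length and in the YAP tumor 1 and tumor 2 lists. Points are genes and bars are medians. H3K27ac medians of complexes II, III, IV and V sit above that of the complex I assembly factors in both H3K27ac panels, while the YAP medians lie close together.

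The tumor and normal YAP libraries were then compared by the number of summits at these genes. The counts were 1 in normal 1, 7 in normal 2, 123 in tumor 1 and 156 in tumor 2, so the groups did not overlap. The means were 139.5 ± 23.3 (SD, n = 2) for tumor and 4.00 ± 4.24 (SD, n = 2) for normal. On the log2(summits + 1) scale the difference was 5.12, and p was 0.33 by the exact permutation test (two-sided), which cannot go lower with 2 libraries against 2. The whole lists differed by 4.59 (log2 ratio of tumor to normal). With all lists shortened to the length of normal 1 by score, the counts were 1, 7, 11 and 12 and the difference was 1.64. Under the grouping that the peak names give, the difference was 1.17 (exact permutation p = 0.667).

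In normal 2, 10 of the 98 genes had a YAP summit within 1 kb of an end or start, against 878 of all 21887 genes. In normal 1 none had, against 21 of all genes. Ndufa4 was again the best ranked of them, at 745 of 2141, followed by Ndufb1 (1040), Ndufs7 (1072) and Ndufa12 (1156). The others were Atp5g3, Ndufab1, Ndufa10, Cox7a2l, Cox8a and Ndufs1. The summits of Ndufa4, Ndufb1 and Ndufs1 lay nearer to another gene, so these genes are not among the 7 with an assigned summit. None of the 10 was in the best 10% of that list, and their median was 60.9%, against 54.0% for all genes with such a summit there. The normal 1 summit was assigned to Cox6a2, the heart and skeletal muscle form of subunit 6a, and did not lie within 1 kb of it.

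Not every gene had a promoter YAP site. Of the 21 without one, 10 had a summit of each tumor library within 1 kb of an end or start but more than 200 bp apart, among them Sdhd, Uqcrb, Cox5b, Cox6b1 and Ndufv2. Genes with no such summit in either tumor library included Cox4i2, Cox6a2, Cox7b2, Cox8b, Cox8c, Ndufb4b and Ndufb4c. Of these, 5 are tissue-restricted isoforms (lung for Cox4i2, heart and skeletal muscle for Cox6a2 and Cox8b, testis for Cox7b2 and Cox8c), and Ndufb4b and Ndufb4c are further gene copies of Ndufb4. Reads from near-identical copies can be lost or split in mapping, and the sources used here do not give the mapping settings. Whether this affected Ndufb4b and Ndufb4c was not tested.

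A smaller share of the sites lay away from gene ends than among all YAP sites, in part because of the assignment rule. Of all 29492 sites, 25076 were assigned to a gene, and the rest lay too far from any gene. Sites at the genes examined could not lie that far, which affects each comparison with all sites in this paragraph. A comparison with assigned sites only was not made. Of the 98 YAP sites of both tumor libraries assigned to these genes, 61 (62.2%) lay within 1 kb of an end, against 32.5% of all 29492 sites, and 12 (12.2%) lay over 10 kb away, against 42.9%. Of the 37 sites more than 1 kb from an end, 8 (21.6%) had a tumor H3K27ac summit within 1 kb, against 32.7% of all sites so placed, and 11 (29.7%) a normal one, against 29.8%. Cycs and Atp5mpl had 5 sites each and Atp5o, the peripheral stalk subunit OSCP, had 4. Cycs had 4 of its 5 beyond its promoter, 16955 to 44055 bp from the gene, and none of these had H3K27ac within 1 kb in either library.

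At tissue-restricted genes, 2 distal sites had an H3K27ac summit within 1 kb in the full tumor list and none in the normal list. Cox8b had a site 8343 bp away (chr7:140908789-140908789), 63 bp from a tumor H3K27ac summit and 26672 bp from the nearest normal one. Cox4i2 had a site 1641 bp away (chr2:152766680-152766680), 123 bp from a tumor and 19292 bp from a normal H3K27ac summit. With the tumor list at equal length neither tumor summit remained, and the nearest one was 26999 bp from the Cox8b site and 28692 bp from the Cox4i2 site. Of the other tissue-restricted or hypoxia-induced isoforms, Ndufa4l2 had a site 3726 bp away. It lay 843 bp from a normal H3K27ac summit and 1073 bp from the nearest tumor one. These distances fall on either side of the 1 kb limit but are similar. Each value rests on 1 H3K27ac library per group.

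H3K27ac marked nearly all of these promoters in both tissues. A summit lay within 1 kb of an end or start of 88 genes in the normal list (89.8%, 82.2 to 94.4), against 52.0% of all genes, and of 93 genes in the full tumor list (94.9%, 88.6 to 97.8), against 69.1%. With the tumor list shortened by score to the length of the normal list, it was 86 genes (87.8%, 79.8 to 92.9), against 54.4%. Counting each summit for its nearest gene only, the numbers at equal length were 77 genes in normal (against 44.0% of all genes) and 73 in tumor (against 44.9%). The 5 genes with no such summit in either full list were Cox7b2, Cox8b, Cox8c, Ndufb4b and Ndufb4c. Of the 8 tissue-restricted or hypoxia-induced isoforms, 1 (Cox7a1) had one in the normal list and 5 had one in the full tumor list, where those newly listed were Cox4i2 (rank 29181), Cox6a2 (39029), Cox6b2 (41854) and Ndufa4l2 (28011). All 4 ranks lie past the length of the normal list, so no difference between the tissues can be read from them.

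The marks were among the strongest of each list. Of the genes with such a summit, 44 of 88 (50.0%) had it in the best 10% of the normal list, against 20.0% of all genes with one, and 42 of 86 (48.8%) in the best 10% of the tumor list at equal length, against 19.8%. In the normal list the best-ranked was Atp5a1, the catalytic-core alpha subunit of ATP synthase, at 61 of 22574, and it held rank 66 in tumor. Cox7c followed with rank 145 in normal and had rank 18 in tumor. In tumor, Cox8a had rank 22 (264 in normal), Ndufab1, the mitochondrial acyl carrier protein, 47 (288), the core complex I subunit Ndufs3 60 (250), and Atp5l 74 (689). The numbers in the best 1% were 2 genes in normal and 10 in tumor at equal length, against 200 of 11386 and 216 of 11912 for all genes.

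H3K27ac rank differed by complex more than YAP rank did. In the normal list the median was 3.67% for complex III and cytochrome c, 5.83% for ATP synthase, 7.17% for complex IV, 7.55% for complex II, 14.1% for complex I subunits and 37.2% for complex I assembly factors. In tumor at equal length it was 4.50%, 3.25%, 4.92%, 3.77%, 14.4% and 26.9% in the same order. Complex I assembly factors were thus the lowest ranked in both lists and the complex I subunits the next lowest, while the order of the other 4 groups differed between them.

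Rank positions changed little between the tissues. Over the 82 genes with a summit within 1 kb of an end in both lists at equal length, whichever gene was nearest, the median difference (tumor minus normal) was -1.05 points, against -2.62 points over all genes. Of these genes 51 ranked better in tumor (62.2%) and 31 worse, against 64.6% better among all genes. The 4 complex II genes all ranked better in tumor, though Sdhd only from 13.2% to 13.1%. Of the 8 assembly factors 6 did, with a median of -7.21 points. The genes ranked worse in tumor by the most were Ndufa9 (28.5% to 64.6%), an accessory complex I subunit, Cox6b1 (15.1% to 48.8%), Ndufa4 (17.5% to 43.7%) and Atp5g1 (11.6% to 34.1%). Cox7b, a complex IV subunit on the X chromosome, had rank 3185 in normal and 31766 in tumor, which falls outside the equal-length list, and Ndufa7 had ranks 8454 and 24264. At Sdhd, Ndufa4 and Ndufa7 the ranks belong to summits at different positions, 561, 543 and 251 bp apart between the libraries. With 1 library per group the rank differences have no replicate check.

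**Figure D2:**
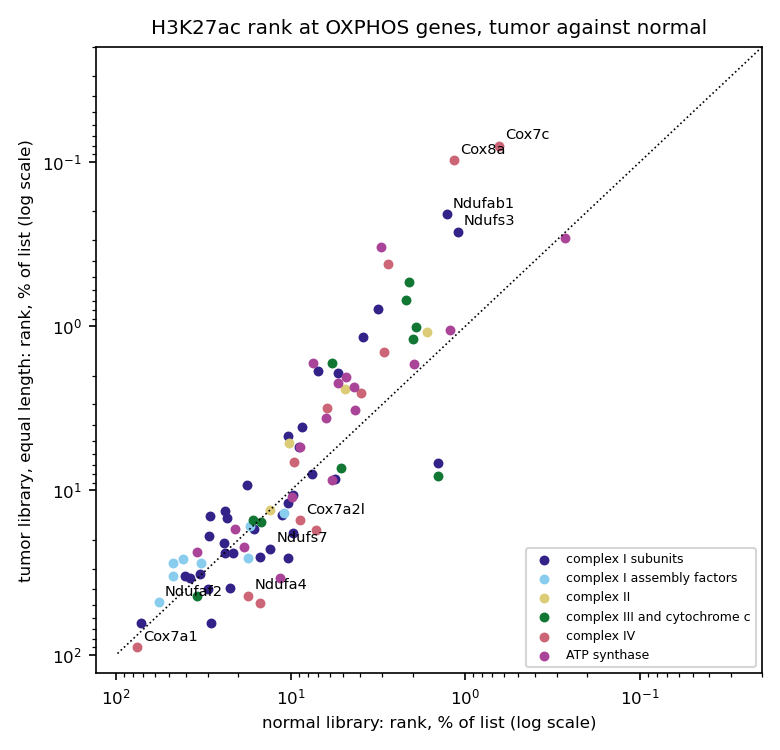
Rank of the best H3K27ac summit within 1 kb of an end or annotated start of each gene, as a percentage of the list (log scales, best at top right), in the normal library (horizontal) and the tumor library at equal length (vertical), coloured by complex. The dotted line marks equal rank. Cox7c, Cox8a, Ndufab1 and Ndufs3 lie above it at the top right, and Ndufa4 (17.5% and 43.7%) lies below it.

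The number of H3K27ac summits per gene was the same in both lists for most genes. At equal length 75 of the 98 genes had equal numbers, 19 had fewer in tumor (19.4%, against 20.5% of all genes) and 4 had more (4.08%, against 16.4%), and the median log2 ratio with 1 added to each count was 0.00. Of the 87 genes with a summit in either list, 21.8% had fewer and 4.60% more, against 31.2% and 25.0% of all such genes. The split turned with the list length: on the full lists 11 genes had fewer and 29 more, and at a score of at least 10 in both lists 8 had fewer and 20 more. Summits at these genes numbered 110 in normal, 87 in tumor at equal length and 140 in the full tumor list.

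A difference of 2 or more at equal length was found at 7 genes, 6 lower in tumor (6.12%, against 6.21% of all genes) and 1 higher (1.02%, against 2.17%). Atp5mpl had 7 summits in normal, 4 in tumor at equal length and 6 in the full tumor list. Cox7a2l had 4, 1 and 1, Ndufv2, which encodes an iron-sulfur subunit of complex I, had 4, 2 and 2, and Sdhd, a membrane anchor of complex II, had 3, 0 and 0. At Sdhd the tumor summit at position -282 from the start was nearer to Timm8b, and with shared promoters counted for both genes the difference was -2. Cox7a2l, Ndufv2 and Sdhd had no more summits in the full tumor list than in the shortened one. Atp5g2 had 4, 2 and 4 and Cycs 3, 1 and 4, so the full tumor list held as many or more than normal for both. Cox7b2, the testis form, was the gene that was higher, with 0, 2 and 2 summits, none within 1 kb of an end.

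**Figure D3:**
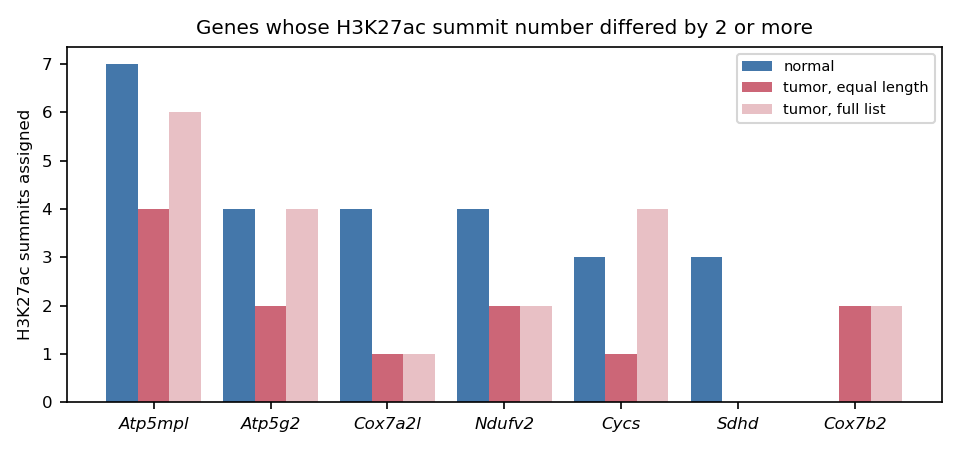
Number of H3K27ac summits assigned to the 7 genes that differed by 2 or more at equal list length, in the normal library, the tumor library shortened to the same length, and the full tumor library (bars from 0, 1 library each). Sdhd, Cox7a2l and Ndufv2 stay below the normal number in the full tumor list, and Atp5g2 and Cycs do not.

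The marks occupied different positions at the start. Over the genes with a listed start, the best H3K27ac summit lay a median of 206 bp downstream in normal (quartiles 166 and 251, 75 genes) and 178 bp downstream in tumor (133 and 214, 76 genes). It lay 100 to 350 bp downstream at 64 of 75 genes in normal (85.3%, against 59.3% of all genes with such a summit) and at 62 of 76 in tumor (81.6%, against 57.0%). The best YAP summit had a median position of 6 bp in tumor 1 (74 genes) and -27.5 bp in tumor 2 (76 genes). YAP sites of both libraries lay within 100 bp of the start at 47 of 66 genes (71.2%), against 49.9% of all genes with one. H3K27ac at these promoters was thus centred downstream of the start and YAP close to it, with larger shares in these windows than among all genes.

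**Figure D4:**
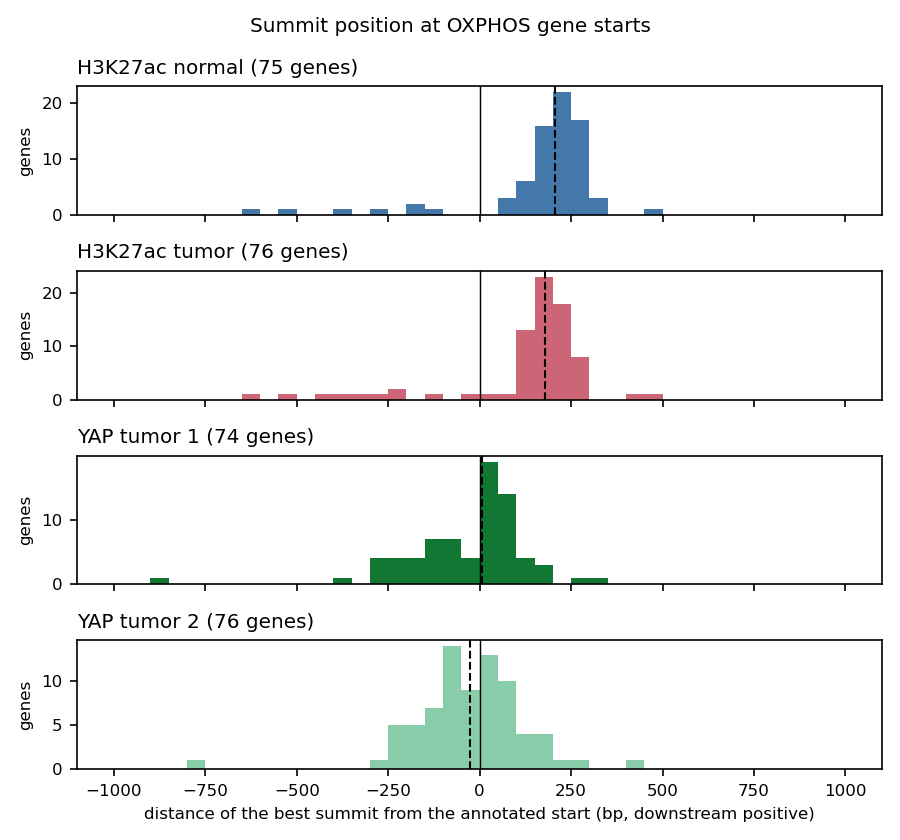
Distance of the best summit from the annotated start of each gene in bp (downstream positive, bins of 50 bp) in the H3K27ac normal, H3K27ac tumor, YAP tumor 1 and YAP tumor 2 libraries. The solid line marks the start and the dashed line the median, which is 206 and 178 bp for H3K27ac and 6 and -27.5 bp for YAP.

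The 2 H3K27ac libraries placed their best summits a median of 29.0 bp apart (88 genes), against 41.0 bp over all genes. They were within 200 bp at 79 of the 88 genes (89.8%, against 84.1% of all genes) and more than 200 bp apart at 9. At Cox7a2l the normal summit lay at -156, 9 bp from the YAP site, and the tumor summit at +206. Ndufa4 had them at +183 in normal and -360 in tumor, Ndufb3 at +72 and -316, and Sdhd at +279 and -282, on opposite sides of the start in each. Ndufa4, Ndufb3 and Sdhd share their promoter with a gene on the other strand (Phf14, Fam126b and Timm8b), so that these upstream summits lie inside the neighbour. Of the 8 such genes with a listed start, 5 had a divergent partner, against 16 of the 67 whose summits were within 200 bp, a split noticed in the data.

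Divergent promoters were common in the whole group. Of the 79 genes with a listed start, 21 (26.6%) had the start of an oppositely oriented gene within 1 kb upstream, against 8.04% of the 17492 genes in the table. Among these pairs were Ndufa7 with Rps28, Ndufb1 with Cpsf2, Uqcrh with Lrrc41, Ndufs3 with Kbtbd4 and Ndufb5 with Mrpl47, the last a mitochondrial ribosomal protein gene. At such promoters a summit cannot be given to either gene by position.

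NRF1, YY1 and ETS letters were found in a larger share of these promoters than of all promoters. In the window from 250 bases before to 50 after the start, read on both strands, NRF1 letters were present at 19 of 79 genes (24.1%, against 7.17% of all promoters), YY1 letters at 11 (13.9%, against 3.57%) and ETS letters at 19 (24.1%, against 12.9%). ERR letters were present at 2 genes, Atp5g3 and Sdhd (2.53%, against 0.377%), and the former is printed above. TEAD letters were present at 8 genes (10.1%, against 15.5%) and AP-1 letters at 7 (8.86%, against 8.12%). Of the 66 genes with a YAP site of both tumor libraries and a listed start, 7 had TEAD letters and 7 had AP-1 letters. Of the 13 others, 1 had TEAD letters and 0 had AP-1 letters. Most promoters with a YAP site thus lacked both the TEAD and the AP-1 letters in this window. Some of the sites, such as those of Atp5d (-836) and Ndufa13 (320), lay outside the window, where no letters were read. These matches describe the letters only, not binding. YY1 letters also tended to lie in the same place: at 9 of the 11 genes (81.8%), among them Ndufs4, Ndufs6, Ndufs7, Ndufc1 and Ndufb8, they lay on the sense strand after the start base, against 259 of 624 promoters with them (41.5%).

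Related gene lists gave the same picture of well-marked promoters. H3K27ac summits lay less than 1 kb from an end or start of all 17 genes of the TCA cycle and all 29 assembly genes of complexes III and IV in both full lists, and a YAP site of both tumor libraries lay there at 17 and 27 of them. In the TCA cycle, which feeds electrons to complexes I and II, Suclg1 had the best-ranked YAP site, at 260 of 29492. Of 22 glycolysis and lactate transport genes, 18 had the H3K27ac summit in normal and 20 in tumor, and 20 had the YAP site. The 16 regulators of mitochondrial biogenesis, such as Nrf1, Tfam, Esrra and Ppargc1a, had 36 H3K27ac summits in normal and 23 in tumor at equal length, with fewer at 8 genes and more at 0, against 31.2% and 25.0% of all genes with a summit in either list. On the full lists the same 16 genes had 59 in tumor, with fewer at 4 genes and more at 8, so the direction turned with the list length. Ppargc1a, the coactivator PGC-1alpha, had 4 in normal, 0 in tumor at equal length and 4 in the full tumor list.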

How the data were processed

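The 6 deposited files list peak summits from MACS2, called per sample; Bowtie2, MACS2 and the build GRCm38 (mm10) are named in the submitters' processing notes, while the sources used here name no versions, thresholds or control libraries. Scores are −log10 values of a p-value or a q-value as deposited by the authors, without saying which, and served only to rank or filter within a list. Depth is unknown.

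Summits outside chromosomes 1 to 19, X and Y were dropped, and the others were assigned within 50 kb to protein-coding genes of the RefSeq table of the same build (Python 3.11.15, numpy 2.4.6, pandas 2.3.3, scipy 1.17.1, matplotlib 3.10.9), with steps tested on simulated data. Where list lengths differed, the longer list was shortened by score. YAP groups were compared by an exact permutation test over libraries, and H3K27ac, with 1 library per group, without a test. Alternatives varied the assignment distance, shared promoters, score threshold, matching distance, promoter width, list length, merging of close summits, the added constant of 1 summit, the grouping and each replicate. The members, lists and tests were chosen with earlier results of these data known. Any member could be named; those described in full had the best YAP ranks of their complex (up to 4), a difference of 2 or more H3K27ac summits, or no promoter H3K27ac. Of the 98 genes, 19 have no start in the promoter table and were left out of distances and motifs.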

Additional observations from a re-analysis of the deposited data

How the results depend on the processing

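The number of genes with a YAP site of both tumor libraries was 73 and ran from 57 (matched within 100 bp) to 83 (shared promoters counted), and within 1 kb of an end it was 61 and ran from 43 (matched within 100 bp) to 77 (annotated starts added, chosen after seeing the data). With 1 tumor YAP library alone the first count was 85 for either and the second 71.0 to 73.0. The log2 difference in YAP summits between tumor and normal was 4.12 to 6.12 with 1 library left out, the lowest without normal 1 and the highest without normal 2; a lone library then stands for its group and no test was made. With a replicate block that paired libraries by the number in their titles the difference was again 5.12 (sign-flip permutation p = 0.50, the smallest that 2 pairs allow), and nothing in the labels says that the numbers mark shared animals. The difference fell to 1.64 at equal list length.

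The median shift in H3K27ac rank was -6.23 points on the full lists, where percentages of a longer list are smaller by construction, against -1.05 at equal length. Per gene, Cycs had 1 summit more in tumor on the full lists and Atp5mpl had 2 more at a score of at least 10, both opposite to the difference at equal length. Merging summits closer than 2 kb left Ndufv2 with a difference of 0, and at a score of at least 10 Cox7a2l, Atp5g2 and Cycs had 0. Genes with fewer and more H3K27ac summits in tumor numbered 19 and 4 at equal length, 11 and 29 on the full lists, and 8 and 20 at a score of at least 10. Summit lists hold no read counts, so a summit missing from a list may be one that was not detectable at that depth.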
